A study of Saccharomyces cerevisiae with 6 samples.

Results

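The spots described here are 42 of the 6144 spots of a yeast open reading frame membrane. At each, the nascent transcription signal divided by genomic DNA had a lower mean in every polyploid strain than in every other strain. At 40 of them this order also held without that division. Genomic run-on was measured in 6 strains of Saccharomyces cerevisiae growing exponentially in the rich medium YPD. A wild-type haploid (WT N, strain BY4741), a cln3Δ mutant and a whi5Δ mutant were set beside a wild-type diploid (WT 2N, strain PY4993), triploid (WT 3N, PY4997) and tetraploid (WT 4N, PY4996). Each strain was deposited as 1 sample with 3 run-on arrays, so the n of 3 counts arrays and not samples. The source label of the cln3Δ sample describes wild-type cells with potassium chloride in the medium, but the mutant is named in 3 other places, the title among them. The title was followed, so every value given for cln3Δ carries that conflict. The labels give no ploidy for the mutants, no mating type and no other marker for any strain, and the polyploids carry strain names of a series other than that of the haploid. Ploidy and any other difference between those strains cannot be told apart.

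In a run-on assay the detergent sarkosyl opens the cells, and polymerases already engaged on a gene extend their transcripts with radioactive UTP for a short time. The label over an open reading frame therefore follows how densely transcribing polymerase occupies it, not how much RNA has accumulated. Cell volume in budding yeast grows with ploidy. Volume also shifts in the mutants, since Cln3, a G1 cyclin, drives cells past Start and Whi5 holds back the transcription of G1/S genes. A cell that carries both mating-type alleles represses the haploid-specific genes. The files identify spots by block and position and pair none with a gene, so a row, a column and a position below stand for the block's row, the block's column and the place inside it. The 42 spots are therefore given by place, and no gene, gene list or sequence is attached to them.

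The run-on level of a spot is the log2 of its background-subtracted signal over the genomic DNA signal of the same membrane, minus the median of the array, so that 0 is the middle spot of the array. Signals below the smallest value with signal-to-noise (S/N) of at least 2 on that array were raised to that value. Spots needed genomic DNA signal above 0 on all 7 membranes, which left 5953, and a run-on S/N of at least 2 on all 9 arrays of WT N, cln3Δ and whi5Δ, which left 3897. A spot is a member where the highest mean of the 3 polyploids lay at least 0.5 below the lowest mean of the other 3 strains. This distance is called the gap. The members were thus chosen by the run-on levels of all 18 arrays, at 1.08% of the 3897 spots, and the differences between polyploids and the other strains are given as a description, with no test. With polyploids required to be higher, the mirrored rule gave 10 of 3988 spots, or 0.251%. Median run-on signal per array ranged from 38.99 to 166.4, and 73.5% to 83.7% of spots on an array had an S/N of at least 2. The name polyploids only does not hold at row 16, column 20, position 1, where cln3Δ was low as well. At that spot, at row 14, column 23, position 16 and at row 1, column 13, position 16, membership rests on membrane 18, whose genomic DNA signal stood apart and whose run-on arrays were polyploid. In all, 7 members left the set when the arrays of membrane 18 were left out.

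The gap of the 42 members ranged from 0.52 to 3.59 on the log2 scale with a median of 0.84. It was at least 1 at 19 members and at least 2 at 6. The median level of the members was 0.71 in WT N, 0.68 in cln3Δ and 0.50 in whi5Δ, above the medians of 0.18, 0.17 and 0.21 of the 3897 eligible spots. In the polyploids the medians of the members were -0.92 (WT 2N), -0.97 (WT 3N) and -1.00 (WT 4N), below the medians of 0.22, 0.19 and 0.20 of the eligible spots. Below 0 lay 15 of 42 members in WT N, 14 in cln3Δ and 14 in whi5Δ, where 40.6%, 41.2% and 39.2% of eligible spots did. In WT 2N, WT 3N and WT 4N it was 35, 34 and 34 members, and 38.5%, 39.1% and 39.7% of eligible spots. At 31 of 42 members all 9 polyploid arrays lay below all 9 other arrays, a pattern held by 37 (0.949%) of the eligible spots. Since the rule used this contrast, the count is a description only. The remaining 11 members overlapped between the sets and had gaps of 0.71 or less.

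**Figure D1:**
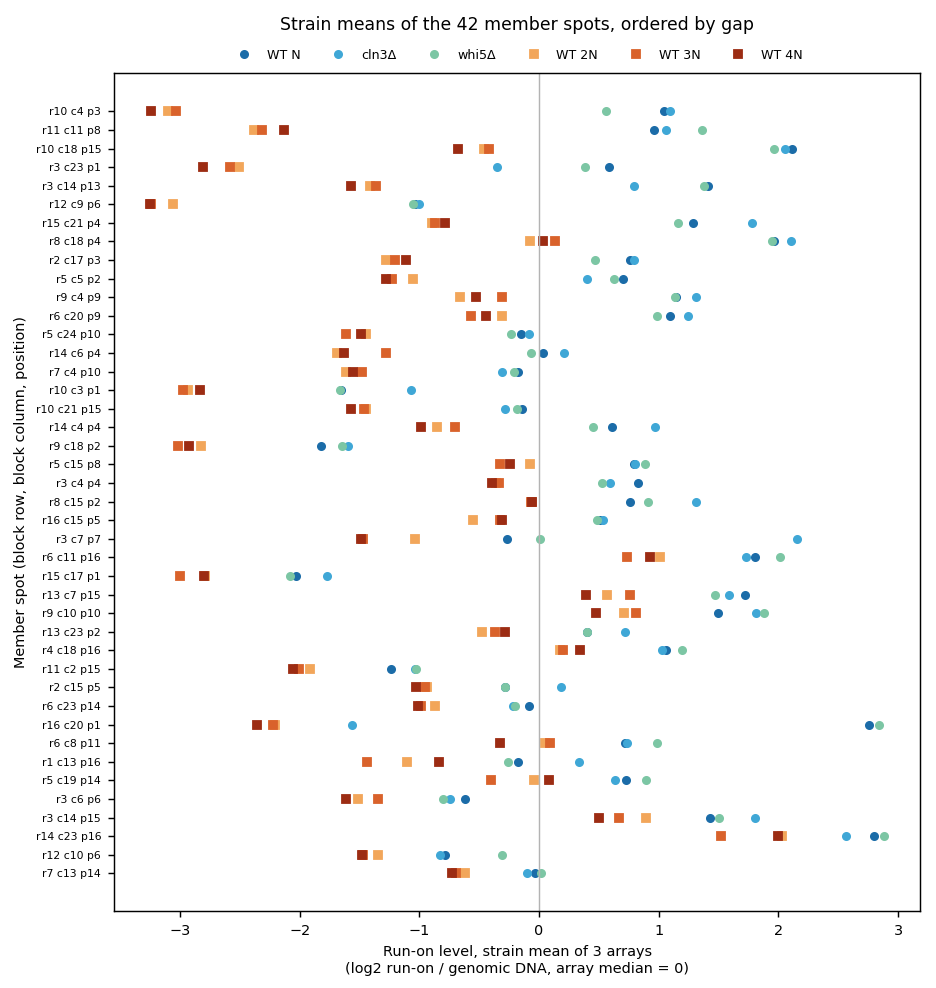
Mean run-on level (log2, array median at 0, 3 arrays per strain) of each of the 42 members, ordered from the largest gap of 3.59 to the smallest of 0.52, with circles for WT N, cln3Δ and whi5Δ and squares for the polyploids. The 3 polyploid means lie to the left of the other 3 means at every member, as the rule required. Their range has a median of 0.21 and reaches 0.61. At row 16, column 20, position 1 the cln3Δ mean lies near the polyploids.

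The largest gap was at row 10, column 4, position 3. Its run-on level was 0.59, 1.28 and 1.26 on the 3 arrays of WT N, 0.47, 1.55 and 1.26 in cln3Δ and -0.01, 0.86 and 0.82 in whi5Δ. It was -2.56, -3.38 and -3.36 in WT 2N, -2.98, -2.96 and -3.16 in WT 3N and -3.25, -3.40 and -3.09 in WT 4N. No polyploid array came within 2 log2 units of any other array. The mean of WT N, cln3Δ and whi5Δ was at least 16.3-fold that of the polyploids. This lower bound is approximate, since 2 polyploid arrays had an S/N under 2. The other 7 of 9 polyploid arrays were above that limit. The S/N ran from 1.39 to 3.26 in the polyploids and from 14.5 to 33.8 on the other arrays. Its genomic DNA was well measured, with an S/N of 6.98 to 12.5.

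At row 11, column 11, position 8 the signal was above background in WT N, cln3Δ and whi5Δ and had an S/N under 2 on all 9 polyploid arrays, the only member of which this holds. The level was 1.34, 1.01 and 0.52 in WT N, 1.35, 0.79 and 1.04 in cln3Δ and 1.38, 1.48 and 1.23 in whi5Δ. In the polyploids only a bound exists, and the level was at most -2.44, -2.11 and -2.59 in WT 2N, -2.22, -1.81 and -2.91 in WT 3N and -2.23, -2.20 and -1.96 in WT 4N. WT N was at least 10.1-fold above WT 2N, at least 9.65-fold above WT 3N and at least 8.52-fold above WT 4N. For each bound a polyploid array entered with its floor, the lowest signal on it whose S/N reached 2, or with the spot's signal where that was higher. On 2 membranes the genomic DNA of this spot had an S/N under 2. The bounds are approximate, as they leave out the noise of these signals.

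A bright spot showed the same order while staying measurable everywhere. At row 10, column 18, position 15 the level was 2.05, 2.29 and 1.99 in WT N, 2.26, 2.08 and 1.82 in cln3Δ and 1.90, 2.29 and 1.70 in whi5Δ, among the 3 highest of the members. It was 0.24, -0.99 and -0.63 in WT 2N, 0.09, -0.67 and -0.69 in WT 3N and -0.56, -0.55 and -0.93 in WT 4N. All 9 polyploid arrays had an S/N of at least 6.19, so the 5.90-fold difference between the 2 sets of strains is a measured ratio and not a bound. The run-on 1 arrays of WT 2N and WT 3N were the highest of the polyploid arrays and still lay more than 1 log2 unit below the lowest other array, at 1.70.

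Row 3, column 23, position 1 was lower in the same strains, and the 3 other means spread over 0.93, the widest range of any member apart from the 2 called in cln3Δ below. Its level was 0.35, 0.87 and 0.53 in WT N, -0.36, -0.16 and -0.52 in cln3Δ and 0.12, 0.34 and 0.69 in whi5Δ. It was -2.55, -2.40 and -2.58 in WT 2N, -2.28, -2.95 and -2.51 in WT 3N and -2.14, -2.89 and -3.41 in WT 4N. The cln3Δ arrays lay between the polyploids and the other 2 strains, without overlap with either, and 7 of 9 polyploid arrays were above an S/N of 2.

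Row 3, column 14, position 13 was close to background in the polyploids. Its level was 1.51, 1.38 and 1.36 in WT N, 1.15, 0.76 and 0.46 in cln3Δ and 1.09, 1.31 and 1.76 in whi5Δ. It was -1.43, -1.55 and -1.27 in WT 2N, -1.04, -1.76 and -1.28 in WT 3N and -1.33, -1.52 and -1.88 in WT 4N, and 5 of these 9 arrays reached an S/N of 2. The sets did not overlap, and the ratio of their means was about 6.26 or more, since 4 polyploid arrays had an S/N under 2. Its genomic DNA signal had an S/N under 2 on 2 membranes.

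A spot of low level in every strain completed the 6 members with the largest gaps. At row 12, column 9, position 6 the level was -0.71, -1.03 and -1.37 in WT N, -1.05, -1.14 and -0.82 in cln3Δ and -1.20, -0.87 and -1.08 in whi5Δ. It was -2.95, -3.24 and -2.99 in WT 2N, -3.59, -3.12 and -3.02 in WT 3N and -3.47, -3.05 and -3.23 in WT 4N. WT N, cln3Δ and whi5Δ had nearly equal means (-1.04, -1.01 and -1.05), all 9 polyploid arrays were above an S/N of 2, and the ratio between the sets was 4.45.

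**Figure D2:**
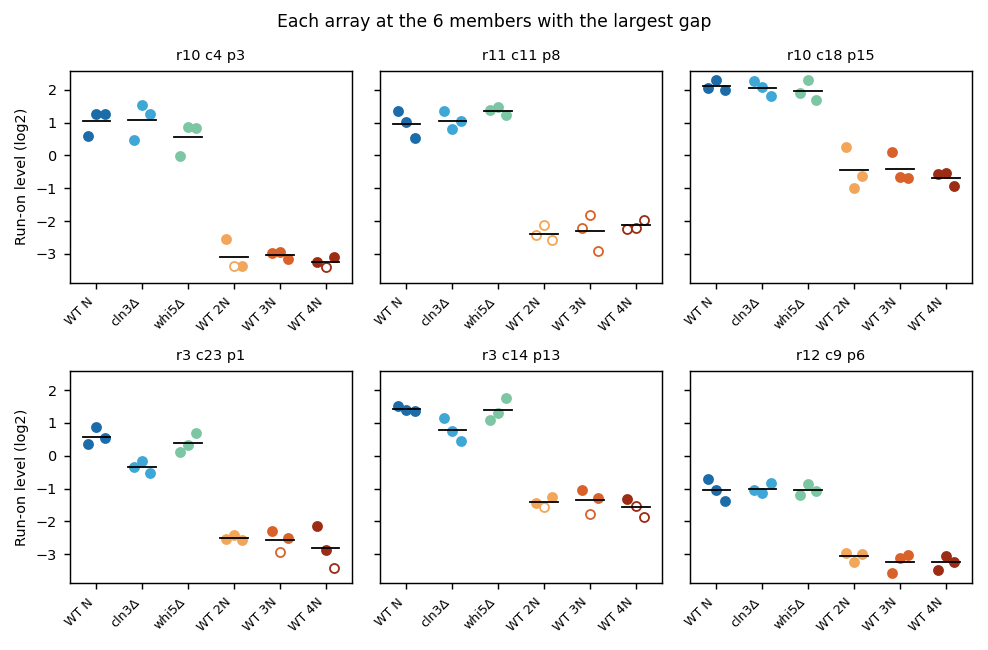
Run-on level (log2, array median at 0) on each of the 18 arrays at the 6 members with the largest gap, 1 panel a spot, with the mean of each strain as a bar. Open circles are arrays with an S/N under 2, which entered with the array's floor or with their own signal where that was higher. In every panel the 9 polyploid arrays lie below the 9 other arrays.

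The members were not confined to one range of run-on level. The highest mean level over WT N, cln3Δ and whi5Δ was at row 14, column 23, position 16, with 2.99, 2.52 and 2.89 in WT N, 2.33, 2.76 and 2.59 in cln3Δ and 2.04, 3.17 and 3.43 in whi5Δ. It was also the highest in the polyploids, with 2.44, 2.91 and 0.74 in WT 2N, -0.14, 2.39 and 2.30 in WT 3N and 3.27, 0.40 and 2.33 in WT 4N. The sets overlapped, the lowest value of each polyploid was its array on membrane 18, and the genomic DNA of the spot had an S/N under 2 on all 7 membranes. That genomic DNA stood at -2.93 to -0.49 (log2, membrane median at 0), so the high run-on level rests on a weak divisor. The run-on S/N in WT N, cln3Δ and whi5Δ was 4.33 to 14.2, against 30.9 to 74.1 at row 10, column 18, position 15.

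Row 8, column 18, position 4 was the third in mean level over WT N, cln3Δ and whi5Δ, after that spot and row 10, column 18, position 15. Its level was 0.93, 2.62 and 2.33 in WT N, 1.70, 1.93 and 2.68 in cln3Δ and 1.50, 1.99 and 2.35 in whi5Δ. It was -0.17, -0.15 and 0.10 in WT 2N, -0.47, 0.15 and 0.73 in WT 3N and -0.29, -0.07 and 0.45 in WT 4N. The sets did not overlap, although the lowest WT N array, at 0.93, lay only 0.20 above the highest polyploid array, at 0.73. All arrays were above an S/N of 2 and the ratio between the sets was 3.92.

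Some members stayed above the middle of the array in the polyploids. At row 6, column 11, position 16 the level was 1.59, 1.76 and 2.06 in WT N, 1.52, 1.94 and 1.73 in cln3Δ and 1.50, 2.18 and 2.35 in whi5Δ. It was 0.87, 1.28 and 0.89 in WT 2N, 0.64, 0.79 and 0.77 in WT 3N and 0.86, 1.05 and 0.86 in WT 4N, a 1.94-fold difference between sets that did not overlap. At row 3, column 14, position 15, the only other member in the same block as another, the level was 0.98, 1.70 and 1.60 in WT N, 1.30, 2.09 and 2.04 in cln3Δ and 1.26, 1.45 and 1.81 in whi5Δ. It was 0.59, 1.08 and 1.00 in WT 2N, 0.60, 0.89 and 0.53 in WT 3N and 0.20, 0.80 and 0.49 in WT 4N. Here the sets overlapped, since the lowest WT N array, at 0.98, lay below 2 of the WT 2N arrays.

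The threshold of 0.5 separated like spots. The gap was 0.52 at row 12, column 10, position 6, where the strain means were -0.78, -0.83 and -0.31 in WT N, cln3Δ and whi5Δ and -1.35, -1.47 and -1.48 in WT 2N, WT 3N and WT 4N. It was also 0.52 at row 7, column 13, position 14, with means of -0.04, -0.10 and 0.01 against -0.62, -0.69 and -0.73. Just outside, it was 0.49 at row 16, column 8, position 10, with means of -1.14, -0.97 and -0.99 against -1.66, -1.66 and -1.62. It was 0.48 at row 11, column 9, position 3, where cln3Δ alone set the gap, with means of 1.06, 0.32 and 1.22 against -0.38, -0.16 and -0.30. Spots just inside and just outside the threshold thus had nearly the same gap.

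In the polyploids, 28 of 42 members had an S/N of at least 2 on all 9 arrays, 13 on some and 1 on none. Among all eligible spots 92.4% passed on all 9. At 3 members at least 1 polyploid strain had an S/N under 2 on all its arrays, so that only an approximate bound exists there. The median gap was 0.71 at the 28 members measured on every array, up to 2.38, and 1.17 at the other 14, up to 3.59.

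The order was also read on arrays that did not choose the spots, in a split made after the data were seen, by applying the rule to the 12 arrays of 2 run-on numbers and reading the gap on the 6 arrays of the remaining one, 1 array per strain. Without run-on number 1 the rule chose 40 spots, and at 37 of them all 3 polyploid arrays of run-on number 1 lay below all 3 other arrays, against 6.87% of the 4136 eligible spots. Without run-on number 2 it chose 34 spots, of which 33 held, against 7.66% of 4035. Without run-on number 3 it chose 41, of which 38 held, against 6.21% of 4012. The shares of held spots were 92.5%, 97.1% and 92.7%. The held-out arrays came from the same deposited samples as the choosing arrays. These shares describe how the arrays agree and are no independent test. Of the chosen spots 35, 30 and 34 were among the 42 members, so the sets largely overlapped without being the same. On the held-out arrays 25 of 40, 28 of 34 and 31 of 41 chosen spots had a gap of at least 0.5, where 0.846%, 1.02% and 0.847% of eligible spots had one.

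The median gap on the held-out arrays was 0.67, 1.02 and 0.84, against 1.04, 1.01 and 0.92 on the arrays that chose the spots. Held-out and choosing arrays still shared membranes and thus genomic DNA values. Without division by genomic DNA, all 3 polyploid arrays lay below all 3 others at 32 of 37, 35 of 43 and 33 of 43 chosen spots, against 8.58%, 8.62% and 5.46% of eligible spots. A gap of at least 0.5 was found at 26, 28 and 24 of these spots, against 1.02%, 1.12% and 0.773% of eligible spots. The 2 spots with the largest gaps on the choosing arrays, row 10, column 4, position 3 and row 11, column 11, position 8, had gaps of 2.48 to 3.91 on the held-out arrays. The chosen spots that failed with division by genomic DNA had gaps of 1.15 or less on the choosing arrays.

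**Figure D3:**
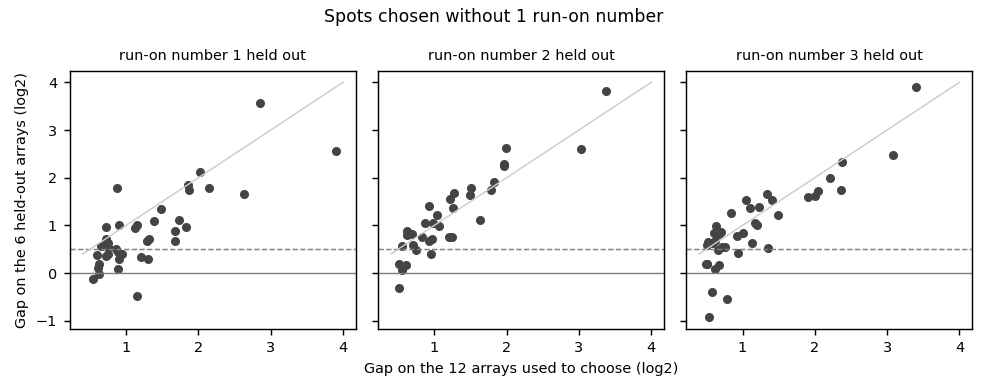
Gap (log2) on the 6 arrays of 1 run-on number against the gap on the 12 arrays used to choose the spots, 1 panel per held-out run-on number and 1 point per chosen spot (40, 34 and 41). The solid horizontal line is 0, the dashed line 0.5 and the grey diagonal equality, and 37, 33 and 38 points lie above 0. Held-out and choosing arrays came from the same deposited samples, so the points are a description only.

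Membrane and polyploidy were partly confounded. All arrays of membrane 18 were polyploid, and none of membranes 14 and 15 were. Within a shared membrane the genomic DNA signal cancels, and 7 pairs of a polyploid with another strain exist on membranes 12, 13, 16 and 17. On membrane 12 the median difference of the members was -1.13 for WT 3N minus WT N and -1.14 for WT 4N minus WT N. On membrane 13 it was -1.21 for WT 3N minus WT N and -1.00 for WT 3N minus cln3Δ. It was -1.15 for WT 2N minus whi5Δ on membrane 16, and -1.20 for WT 2N minus whi5Δ and for WT 4N minus whi5Δ on membrane 17. The medians of the eligible spots lay between -0.06 and 0.10.

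A difference of at least 0.5 in the direction of the rule was found in these pairs, in the same order, at 38, 37, 36, 37, 37, 40 and 35 of 42 members. The eligible spots gave 18.3%, 18.1%, 4.11%, 10.5%, 13.7%, 4.52% and 16.4%. At 39 of 42 members the polyploid lay below the other strain in all 7 pairs, as at 4.75% of eligible spots, and at 26 by at least 0.5 in all 7, as at 0.667%. The rule used all these arrays and several enter more than 1 pair, so the counts are a description and nothing is read from them about the membranes. At row 10, column 4, position 3 the difference lay between -4.43 and -3.42 in all 7 pairs.

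**Figure D4:**
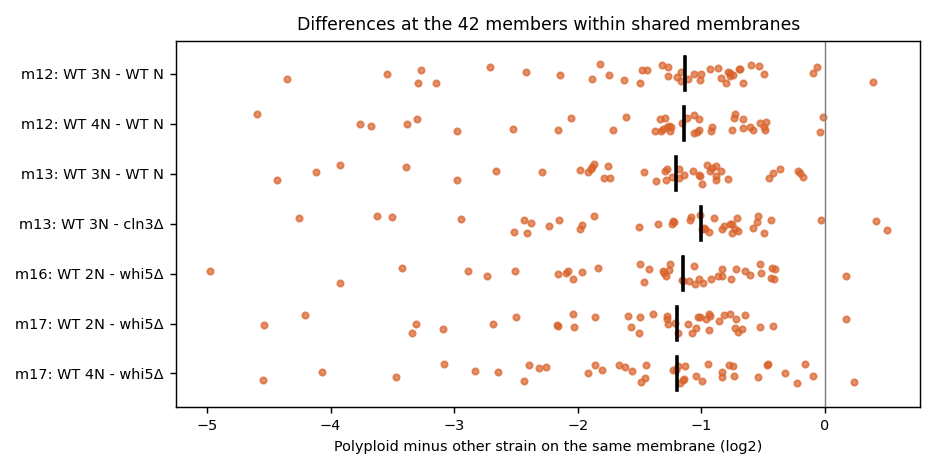
Difference in run-on level (log2) of a polyploid minus another strain on the same membrane (m12 to m17) at each of the 42 members, with the median of each pair as a vertical bar. Medians lie between -1.21 and -1.00, and at most 2 members per pair lie above 0.

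The 3 members that were higher in a polyploid in at least 1 pair were row 16, column 20, position 1, row 6, column 8, position 11 and row 1, column 13, position 16. They were named after their values were seen, apart from the first. At row 1, column 13, position 16 the polyploid was lower in only 3 of 7 pairs, with differences from -0.49 to 0.39. Its level was -0.22, -0.10 and -0.20 in WT N, 0.19, 0.44 and 0.36 in cln3Δ and -0.08, -0.54 and -0.16 in whi5Δ. It was -0.37, 0.00 and -2.95 in WT 2N, -4.19, 0.17 and -0.31 in WT 3N and 0.07, -2.32 and -0.26 in WT 4N, and the lowest array of each polyploid was the one on membrane 18. The genomic DNA signal there was 682.7 on membrane 18 against 22.8 to 50.5 on the other 6 membranes. Without division by genomic DNA the gap was -0.71.

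Genomic DNA on membrane 18 exceeded the median of the other membranes by at least 1 log2 unit at 3 of 42 members and at 0.719% of eligible spots. The members were this spot (3.81), row 16, column 20, position 1 (1.83) and row 14, column 23, position 16 (1.81). With the 3 arrays of membrane 18 left out, their gaps were -0.19, -0.06 and -0.24, and the rule gave 39 spots, 35 of them members. The remaining members that left the set kept gaps of 0.31 to 0.44. Over all members the genomic DNA of membrane 18 differed from the mean of membranes 14 and 15 by a median of 0.01, against -0.00 for eligible spots. Without division by genomic DNA 40 of 42 members kept a gap above 0 and 34 a gap of at least 0.5, among them all 19 members with a gap of at least 1.

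An S/N under 2 for genomic DNA on at least 1 membrane was found at 19 of 42 members (45.2%) and at 55.0% of eligible spots. The median gap was 0.79 at the 23 members with genomic DNA above 2 on every membrane, up to 3.59, and 1.15 at the other 19, up to 3.09. The mean genomic DNA level of the members had a median of 0.43 (log2, membrane median at 0), against 0.32 for eligible spots.

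**Figure D5:**
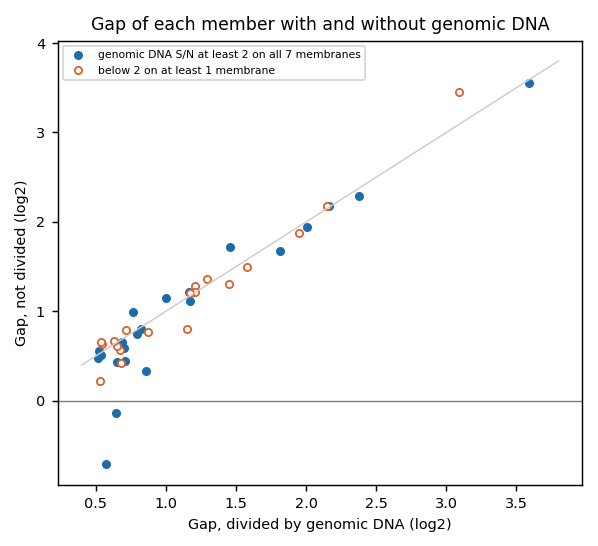
Gap of each member (log2) computed without division by genomic DNA, on the vertical axis, against the gap with division. The grey diagonal is equality, open circles are members whose genomic DNA had an S/N under 2 on at least 1 membrane, and 40 of 42 members lie above 0 on the vertical axis.

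Differences among the polyploids were fitted with limma over 4979 spots, with Benjamini-Hochberg adjustment over all of them. The rule took the highest of the 3 polyploid means and so selected against a spot with 1 high polyploid, and the members' values in these comparisons are a description. No member and no other spot was called at an adjusted p under 0.05 for WT 3N minus WT 2N, WT 4N minus WT 2N or WT 4N minus WT 3N (0%, 0% and 0% of spots called). At an unadjusted p under 0.05, 0, 0 and 1 of 42 members passed, against 2.89%, 1.02% and 0.723% of all tested spots. The absence of calls does not show that the strains were alike. The median differences of the members were -0.02, -0.10 and -0.03, against -0.02, -0.04 and -0.02 for eligible spots.

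The range of the 3 polyploid means had a median of 0.21 at the members and 0.20 at eligible spots, and the median standard error of a difference at the members was 0.25. The largest difference between polyploids was 0.61 (SE 0.89, limma adjusted p = 1.00) for WT 4N minus WT 3N at row 1, column 13, position 16, the spot with the deviating genomic DNA. For WT 4N minus WT 2N, WT 4N was lower at 29 of 42 members, where 59.3% of eligible spots were also lower. Against WT N the members had median differences of -1.10 for WT 2N minus WT N, -1.24 for WT 3N minus WT N and -1.20 for WT 4N minus WT N. These 3 differences share the WT N arrays, and the rule used them.

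The differences among WT N, cln3Δ and whi5Δ came from the same limma fit. The rule required signal on all their arrays and took the lowest of their means, so the members' counts here are likewise no independent test. In whi5Δ no member was called against WT N, with 2 of 4979 spots called (0.0402%), and 0 of 42 members had an unadjusted p under 0.05, against 2.61% of spots. Same-numbered arrays of these strains were correlated, and with run-on number as a block 8 spots (0.161%) and 0 members were called. In that limma fit 2 of 42 members had an unadjusted p under 0.05, against 4.4% of spots. The differences between whi5Δ and WT N at the members ranged from -0.48 to 0.47 with a median of -0.01.

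In cln3Δ, 2 of 42 members were called against WT N, where 39 of 4979 spots (0.783%) were called, and 7 members had an unadjusted p under 0.05, against 6.95% of spots. The same 2 members were called against whi5Δ, where 72 spots (1.45%) were called, and 9 members had an unadjusted p under 0.05, against 9.58%. These comparisons share the cln3Δ arrays. At row 3, column 7, position 7 the level was -0.30, -0.67 and 0.18 in WT N, 1.92, 2.44 and 2.11 in cln3Δ and -0.20, 0.11 and 0.12 in whi5Δ. It was -1.17, -1.06 and -0.87 in WT 2N, -1.02, -1.80 and -1.58 in WT 3N and -1.33, -1.50 and -1.63 in WT 4N. The spot rose by 2.42 on the log2 scale in cln3Δ against WT N (SE 0.23, limma adjusted p = 7.91e-06) and by 2.15 against whi5Δ (SE 0.23, limma adjusted p = 2.07e-05). The rise was 2.59 and 2.26 within membranes 13 and 14, and 2.32 against whi5Δ within membrane 15. The strain means of this spot thus lay at 3 levels, lowest in the polyploids, where the rule required it, intermediate in WT N and whi5Δ and highest in cln3Δ. Of its polyploid arrays 7 had an S/N of at least 2. The lowest WT N array, at -0.67, lay close above the highest polyploid array, at -0.87.

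Row 16, column 20, position 1 differed the other way, and its level was 2.43, 3.03 and 2.81 in WT N, -1.59, -1.56 and -1.54 in cln3Δ and 2.11, 3.48 and 2.93 in whi5Δ. It was -1.50, -1.60 and -3.52 in WT 2N, -3.67, -1.92 and -1.09 in WT 3N and -1.62, -3.29 and -2.16 in WT 4N. It fell by 4.32 in cln3Δ against WT N (SE 0.59, limma adjusted p = 0.000415), and the difference from whi5Δ was -4.40 (SE 0.59, limma adjusted p = 0.000227). Within membrane 13 WT 3N lay 0.50 above cln3Δ, and the gap that made the spot a member was -0.14 without division by genomic DNA. Lower signal in polyploids alone does not describe this spot, since cln3Δ was low with them. A rule that asks for cln3Δ and the polyploids to be at least 0.5 below WT N and whi5Δ gave 38 spots, 3 of them among the 42 members.

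At the other 40 members the range of the means of WT N, cln3Δ and whi5Δ had a median of 0.28 and reached 0.93, against a median of 0.26 for eligible spots. The SD of the 3 arrays of a strain at the members had a median of 0.28 in polyploids and 0.23 in the other strains, against 0.26 and 0.24 at eligible spots. The median spread between arrays at the members was thus close to that of eligible spots. It was wider at the members whose membership rests on membrane 18. The SDs of the polyploids were 1.29 to 2.39 at row 1, column 13, position 16. They were 0.85 to 1.32 at row 16, column 20, position 1 and 1.14 to 1.46 at row 14, column 23, position 16.

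The members lay scattered over the membrane. They occupied 41 of 384 blocks, all 16 block rows, 20 of 24 block columns and 15 of 16 positions, with at most 6 in a block row and 5 in a block column. No member touched another. At the 322 spots directly adjacent to members, taking positions to run in rows of 4 within a block, the mean of WT N, cln3Δ and whi5Δ exceeded that of the polyploids by a median of 0.03, against 0.01 over all 5953 spots.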

How the data were processed

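Per the file headers, the authors deposited a table of spots for each hybridisation (18 run-on arrays and 18 genomic DNA files, which are copies of 7 hybridisations, 1 per membrane). The deposited intensity columns are a density and that density less background, set to 0 where negative, which held for the values. Per the file headers the remaining column used is S/N, a score. The sources used here name no imaging program, and the normalisation by median absolute deviation (MAD) that the series' design text names is not in these values.

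Strain came from each sample's title, and run-on number and membrane from the names of the arrays. Replicate numbers are run-on numbers. No label says whether a strain's arrays stem from different cultures. P-values thus reflect spread among these arrays, which may be technical, and 3 arrays per strain limit the precision. No 2 run-on arrays were identical (r from 0.808 to 0.977).

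Levels, members and gaps were computed in Python 3.11.15. Differences within the polyploids and within WT N, cln3Δ and whi5Δ, whose arrays the rule also used, were fitted in limma 3.58.1 (R 4.3.3; lmFit and eBayes, 6 strain means, all 18 arrays), over 4979 spots with genomic DNA above 0 on all 7 membranes and S/N of at least 2 on all 3 arrays of at least 1 strain, with calls where the adjusted p (Benjamini-Hochberg) was under 0.05. The fit was also run on simulated data with independent noise, without the shared membranes and run-on numbers of these arrays. No result here rests on that run. The main fit had no block. Same-numbered arrays of WT N and whi5Δ shared deviations from their strain means (r = 0.497, 0.218 and 0.389). Each r was over 0.1, so the fit with run-on number as a block is given beside the main fit for that comparison. In the other 5 tested comparisons at least 1 correlation was under 0.1. Spots named are the 6 members with the largest gap, the 3 highest in either set of strains, 2 on each side of the threshold and up to 2 called per comparison. The members and the naming rule were chosen with earlier results of these data known.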

Additional observations from a re-analysis of the deposited data

Results flagged for a closer look

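The genomic DNA level of each member was compared over the 7 membranes (log2, membrane median at 0). At 3 of 42 members 1 membrane lay apart from the rest by more than Dixon's critical value. Chance passes that value in about 1 in 20 groups. The same comparison is not given for eligible spots, so the count is a description only. At row 1, column 13, position 16 membrane 18 stood at 3.44 and the other membranes between -0.73 and 0.03. At row 16, column 20, position 1 it was again membrane 18, at 2.40 against 0.29 to 0.97. At row 3, column 14, position 13 membrane 13 was low, at -1.35 against -0.89 to -0.57. Membrane 18 held polyploid arrays only, so a high divisor there lowers the polyploid level alone. Without division by genomic DNA the gap of the first 2 members was below 0 (-0.71 and -0.14). Row 14, column 23, position 16 did not pass the critical value. Membrane 18 stood at -0.49 there and the other membranes between -2.93 and -1.86.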

How the results depend on the processing

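The number of members stayed within 1.5 times 42 under most settings. It was 42 with arrays scaled to a common MAD (40 shared with the 42), 36 with quantile normalisation (36 shared), 40 without division by genomic DNA (34 shared), 31 with uncorrected density (31 shared), 43 without a floor (42 shared) and 35 with an S/N of 3 (35 shared). It was 19 with a gap of 1 and 23 with genomic DNA above an S/N of 2 on all membranes, both by construction. Leaving out 1 array gave 37 to 45 spots, and 29 members were kept in all 18 such settings. Over these settings and the one without membrane 18, 35 to 42 of the spots were members. Leaving out membrane 18 (39 spots), the held-out run-on numbers and the mirrored rule (10 spots) were chosen after seeing the data. The median gap was 0.66 with uncorrected density, and the cause was not tested. Within membranes, where single pairs of strains and not the gap are compared, the medians of the polyploid deficit were 1.13, 1.14, 1.21, 1.00, 1.15, 1.20 and 1.20. Of 210 gaps of single members over 5 scalings 208 stayed above 0. The exceptions were -0.71 at row 1, column 13, position 16 and -0.14 at row 16, column 20, position 1, both without division by genomic DNA. Of the 210 gaps 153 were smaller than in the main setting. The members were chosen for their gap on these same arrays, so the counts are a description only.

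With run-on number as a block (replicate block) 62 spots were called for cln3Δ against WT N, 127 for cln3Δ against whi5Δ and 8 for whi5Δ against WT N. The block changed no call of a member, and it left 0 calls between polyploids, with 239, 90 and 80 spots at an unadjusted p under 0.05 for WT 3N against WT 2N, WT 4N against WT 2N and WT 4N against WT 3N. For cln3Δ against WT N 3 members were called with membrane as a block and without cln3Δ replicate 1. With membrane as a fixed block 33 spots were called for cln3Δ against whi5Δ, and 1 for whi5Δ against WT N. The latter count was also 5 without division by genomic DNA, 6 without a floor and 1 with only the 2 strains in the fit. The causes were not tested. Leaving out 1 array gave 24 to 42 spots for cln3Δ against WT N (25 without WT N replicate 3, 24 without cln3Δ replicate 2), 49 to 73 for cln3Δ against whi5Δ, 2 to 3 for whi5Δ against WT N and 0 to 1 for WT 4N against WT 2N (1 without WT 4N replicate 1). Both members called in cln3Δ kept their direction and call under every setting run.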
